A study of Mus musculus with 17 samples.

Results

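The 10 genes described here belong to bone morphogenetic protein (BMP) signalling and were followed in mouse embryonic stem (ES) cells: the ligands Bmp4 and Bmp7, the Id genes Id1, Id2, Id3 and Id4, the inhibitors Smad6 and Bambi, and the homeobox genes Msx1 and Msx2. They were taken by symbol from 53588 genes, after transcripts had been summed per symbol of the GENCODE M21 annotation. All 10 passed the filter on low counts that left 19796 genes for testing.

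BMP ligands are secreted dimers that bind pairs of type I and type II receptor kinases, which phosphorylate Smad1, Smad5 and Smad9. These Smads join Smad4, enter the nucleus and switch on target genes, of which the Id genes are the best known, together with Smad6 and Bambi as feedback inhibitors and the Msx genes as targets in many embryonic tissues. Id proteins are helix-loop-helix (HLH) proteins without a DNA-binding region that tie up the E proteins, and in mouse ES cells grown with leukemia inhibitory factor (LIF) the induction of Id genes by BMP or serum is known for helping to hold back neural differentiation.

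The 17 libraries of polyadenylated RNA came from 5 lines made from MC1 ES cells (129S6/SvEvTac), named iFoxA1, iFoxC1, iFoxG1, iFoxL2 and iFoxP3. Each line has the open reading frame of its Fox factor, tagged with His6-FLAG at the C terminus, at Rosa26 with a puromycin resistance gene, and doxycycline (Dox) represses the transgene. The 6 libraries at 0 h (2 of iFoxA1, 1 of each other line) were grown on gelatin with 15% fetal bovine serum (FBS), 1000 U/ml LIF, 0.2 µg/ml Dox and 1.0 µg/ml puromycin. The 11 libraries at 24 h (3 of iFoxA1, 2 of each other line) had spent that time without Dox in a differentiation medium with 10% FBS. All groups carry a transgene, and no line without one is among the samples, so a change from 0 h to 24 h holds the loss of Dox, the change of medium and the factor together.

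Library totals ran from 17.7 to 22.2 M estimated counts in 12 libraries and from 32.9 to 37.2 M in the 5 others, which are all at 24 h (iFoxA1 replicate 3 and replicate 2 of each other line) and are called the second library set here. Among these, iFoxA1 replicate 3 and iFoxL2 replicate 2 stood apart from their own replicates, with 21.8 TPM (the authors' level per transcript length and library) of Foxa1 against 131 and 137 and with 2.85 TPM of Foxl2 against 78.1. Values without both are given beside the counts and the main results they touch. Without them iFoxL2 has 1 library at 24 h, and a larger share of all genes passes in each comparison. In iFoxC1 and iFoxP3 the factor had 48.1 to 183.8 TPM at 24 h, and none of these 4 factors was above 1.59 TPM in its own line at 0 h. The 8 ES markers, which include Pou5f1, Sox2 and Nanog, all reached at least 1 TPM at both times. Their summed level was 5103 to 6344 TPM at 0 h and 3281 to 5494 TPM at 24 h. Fewer cells of a type and less RNA per cell cannot be told apart in these bulk samples, and the p-values measure only the spread between libraries, because the labels do not say that replicates were separate cultures.

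Averaged over the 5 lines, Id1, Id2, Id3 and Msx1 rose by 24 h. Id2 rose 8.53-fold, Id3 4.04-fold and Id1 3.06-fold, and Msx1 went from nearly no reads to about 1 TPM. The 6 other members did not pass the test, and none of the 10 passed as lower with all libraries. With edgeR's quasi-likelihood test and a Benjamini-Hochberg adjusted p below 0.05 as the threshold, 4 of 10 members were called, against 37.8% of all genes tested (21.7% higher and 16.1% lower), so the count itself was near the background. In the first library set alone, which has replicates in iFoxA1 only, the log2 changes of Id1, Id2, Id3 and Msx1 were 1.77, 2.98, 2.07 and 4.05. At an unadjusted p below 0.05, 6 members were higher and 0 lower (47.3% of all genes passed), and DESeq2 called the same number as edgeR, 4 higher and 0 lower (40.1% of all genes). The median log2 change was 0.47 over the members and 0.04 over all genes. For Id2, Id3 and Msx1 each of the 11 libraries at 24 h was above each of the 6 at 0 h, which held for 4.8% of all genes. Without iFoxA1 replicate 3 and iFoxL2 replicate 2, 8 members were called, 7 higher and 1 lower, against 52.9% of all genes. Marker lists of other cell types moved over the same comparison: the summed neural markers went from 36.8 to 62.7 TPM at 0 h to 5.99 to 16.1 TPM at 24 h, the trophoblast markers from 2.49 to 4.52 TPM to 4.14 to 14.9 TPM, and the mesoderm markers from 0.431 to 1.39 TPM to 2.75 to 30.9 TPM. Tubb3 made up most of the neural sum, with 34.9 to 60.4 TPM at 0 h and 4.28 to 12.4 TPM at 24 h. The neural markers did not go one way. Sox1 rose in iFoxG1 from 0.711 to 5.69 and 3.39 TPM, and Pax6 in iFoxC1 from 0.464 to 2.30 and 2.65 TPM. Genes of the mesoderm and trophoblast lists were mixed too. Hand1 made up most of the highest mesoderm sums, with 22.9 and 29.9 TPM in iFoxC1 at 24 h. T went from 0.512 to 0.407 and 0.316 TPM in iFoxG1. In iFoxP3 T instead went from 0.189 to 1.58 and 0.931 TPM. Elf5, of the trophoblast list, spanned 0.126 to 0.299 TPM at 0 h and 0.0320 to 0.571 TPM at 24 h. The part of these marker lists in the changes of the members was not tested.

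**Figure D1:**
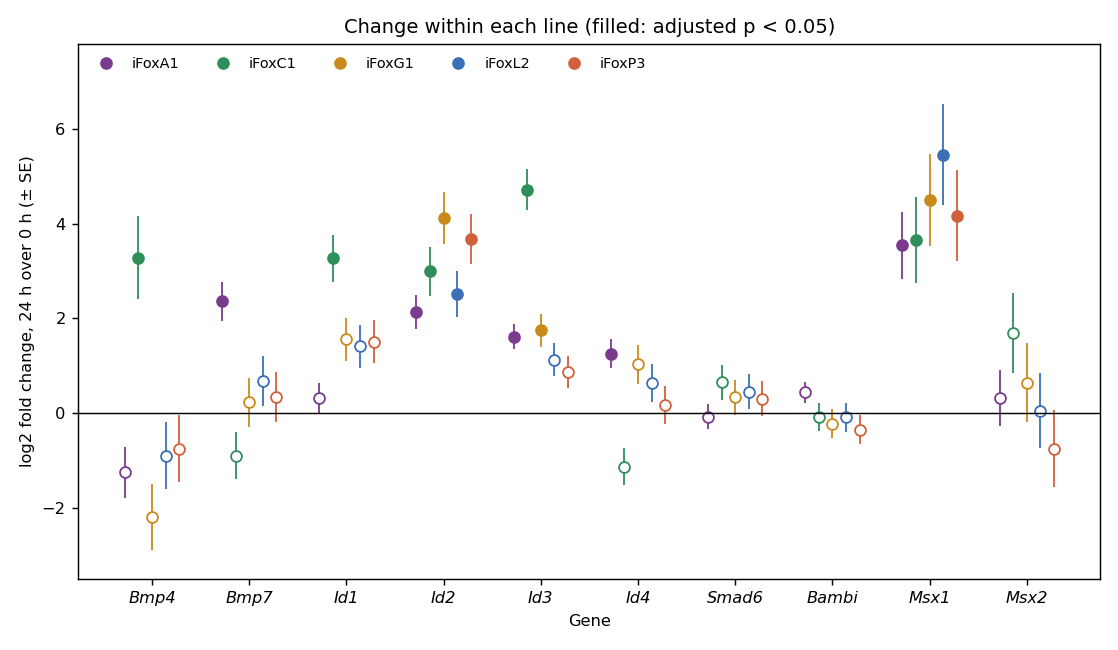
Within-line log2 change between 0 h and 24 h (vertical axis, colour by line) for the 10 members (horizontal axis), with error bars of 1 standard error from the edgeR fit and filled points where the adjusted p was below 0.05. Id2 lies above 2 in every line, Id3 and Bmp4 reach 4.72 and 3.29 in iFoxC1, and Bmp4 lies below 0 in the 4 other lines.

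The promoters of Id2 and Id3, which rose together in the average, are shown with that of Smad6, a target gene of the same pathway that did not pass the test. They are 300 bases each, 250 before and 50 after the gene's start, from RefSeq on GRCm38.p6, read on the strand of the gene from 5′ to 3′. Id2 is at chr12:25096043-25096342 (minus strand), Id3 at chr4:136143572-136143871 (plus strand) and Smad6 at chr9:64022010-64022309 (minus strand). Capitals mark the motifs searched on both strands, namely the Smad palindrome GTCTAGAC, the GC-rich Smad element GGCGCC, the short Smad site CAGAC, which reads GTCTG on the other strand, and the forkhead core TGTTTAC. None of the marked matches overlaps another. The start is RefSeq's: it lies 1048 bases for Id2 and 325 bases for Id3 downstream of the outermost start of the gene in GENCODE M21, whose gene bounds are used below, and is the same for Smad6.
Id2: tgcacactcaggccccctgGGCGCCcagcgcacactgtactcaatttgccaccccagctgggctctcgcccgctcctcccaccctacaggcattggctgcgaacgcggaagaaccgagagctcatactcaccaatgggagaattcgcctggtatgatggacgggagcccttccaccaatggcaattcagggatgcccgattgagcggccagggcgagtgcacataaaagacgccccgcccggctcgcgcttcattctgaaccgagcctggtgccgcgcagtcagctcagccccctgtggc
Id3: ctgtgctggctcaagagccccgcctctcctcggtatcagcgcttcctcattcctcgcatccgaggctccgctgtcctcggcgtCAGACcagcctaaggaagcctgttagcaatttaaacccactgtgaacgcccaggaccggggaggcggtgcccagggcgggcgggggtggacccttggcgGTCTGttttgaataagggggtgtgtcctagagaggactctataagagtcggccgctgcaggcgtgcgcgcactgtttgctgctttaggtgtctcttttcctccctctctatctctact
Smad6: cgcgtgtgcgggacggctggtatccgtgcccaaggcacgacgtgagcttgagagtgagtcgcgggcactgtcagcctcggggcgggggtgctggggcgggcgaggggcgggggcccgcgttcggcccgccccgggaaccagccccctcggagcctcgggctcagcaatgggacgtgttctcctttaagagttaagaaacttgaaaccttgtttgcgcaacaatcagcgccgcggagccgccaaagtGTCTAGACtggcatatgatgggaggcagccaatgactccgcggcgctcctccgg
Promoters of 7 of the 10 members were matched in the table, namely Bmp4, Id2, Id3, Id4, Smad6, Msx1 and Msx2. GGCGCC was found in Id2 (position -231, where -1 is the last base before the start) and in Id4 (position -148), and in 11.9% of 32851 promoters of the same length. CAGAC was found in Id3 alone among the 7, at positions -167 and -68, and in 49.6% of all promoters. GTCTAGAC was found in Smad6 alone, at position -4, and in 0.213% of all promoters. TGTTTAC was in none of the 7 and in 3.65% of all promoters. These matches describe letters in a window and not bound sites.

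Id1 and Id3 were the most abundant members per length at 24 h. Over the 11 libraries Id1 had a mean of 96.1 ± 52.3 TPM (SD, n = 11) and Id3 of 50.2 ± 20.1 TPM (SD, n = 11), followed by Id2 with 24.5 ± 15.0 TPM (SD, n = 11) and Bmp4 with 14.2 ± 8.84 TPM (SD, n = 11). At 0 h Id1 had 38.6 ± 16.2 TPM (SD, n = 6), Bmp4 19.3 ± 8.94 TPM (SD, n = 6) and Id3 15.7 ± 7.27 TPM (SD, n = 6), while Id2 had 2.68 ± 0.901 TPM (SD, n = 6). Id2 was thus below Bmp4 in mean level at 0 h and above it at 24 h, although their ranges at 24 h overlapped. The Bmp4 level includes Bmp4-204, a transcript of 258 bases with a retained intron and at most 5.71% of the Bmp4 counts. It had up to 8.48 TPM at 0 h and 14.4 TPM at 24 h, so the order of Bmp4 and Id3 at 0 h is not firm. Bmp7, Id4, Smad6, Bambi and Msx2 had means between 0.697 and 2.95 TPM at 0 h and between 1.02 and 3.48 TPM at 24 h, and Msx1 rose from 0.0605 ± 0.0249 TPM (SD, n = 6) to 1.10 ± 0.617 TPM (SD, n = 11).

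Id2, a partner of E proteins with roles in lymphoid and mammary cells among others, is annotated on chromosome 12 from 25093799 to 25097140 (mm10, minus strand). Its level is given in CPM, counts scaled to the library total with TMM factors, as are the levels below unless TPM is named. At 0 h Id2 had 2.01 and 1.21 CPM in the iFoxA1 libraries, 1.80 in iFoxC1, 1.95 in iFoxG1, 2.58 in iFoxP3 and 3.41 in iFoxL2. At 24 h it had 5.21, 5.75 and 10.4 CPM in iFoxA1, 12.6 and 16.2 in iFoxC1, 33.6 and 34.5 in iFoxG1, 22.4 and 16.8 in iFoxL2, and 29.8 and 36.6 in iFoxP3. Every library at 24 h was thus above every library at 0 h, and iFoxA1 was lowest of the 5 lines at 24 h with no overlap with any other line. The average log2 change was 3.09 ± 0.22 (SE, edgeR adjusted p = 1.40e-05), and Id2 passed the test within each line, with log2 changes of 2.14 in iFoxA1, 2.52 in iFoxL2, 3.00 in iFoxC1, 3.68 in iFoxP3 and 4.12 in iFoxG1. These 5 changes were not shown to differ from each other, as the test of the difference did not pass for Id2 (edgeR adjusted p = 0.324). In mean level at 24 h the lines ran iFoxG1, iFoxP3, iFoxL2, iFoxC1 and iFoxA1, and of these neighbours only iFoxG1 and iFoxP3 overlapped. Of the transcripts, Id2-201 of 1270 bases took at least 92.6% of the Id2 counts in the first library set, while Id2-202 of 1969 bases took at most 0.269% there and 14.1% to 26.9% in the second set, so the library sets split this gene's reads differently.

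Id3, the Id family member on chromosome 4 (136143497 to 136145755, mm10, plus strand), rose in the average by a log2 change of 2.02 ± 0.16 (SE, edgeR adjusted p = 2.13e-05). It had 14.4 and 13.6 CPM in the iFoxA1 libraries at 0 h, 23.9 in iFoxG1, 21.9 in iFoxL2 and 23.4 in iFoxP3, but 1.71 in iFoxC1. By 24 h the values were 48.9, 49.4 and 31.0 CPM in iFoxA1, 42.3 and 47.8 in iFoxC1, 75.5 and 85.2 in iFoxG1, 59.8 and 36.0 in iFoxL2, and 41.3 and 43.8 in iFoxP3. The iFoxC1 library was low at 0 h only, and at 24 h iFoxC1 lay within the range of iFoxA1 and iFoxL2, with iFoxG1 above all others. Within lines Id3 passed the test in iFoxC1 (4.72 ± 0.43), iFoxG1 (1.75 ± 0.35) and iFoxA1 (1.62 ± 0.26), with SE from edgeR, and had log2 changes of 1.13 in iFoxL2 and 0.86 in iFoxP3 that did not pass. Without the 2 libraries that stood apart, the iFoxA1 change was 1.80 and the iFoxL2 change 1.46.

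Id1, on chromosome 2 (152736251 to 152737410, mm10, plus strand), is the Id gene most often used as a readout of BMP signalling. Its values at 0 h were 30.5 and 29.3 CPM in iFoxA1, 32.9 in iFoxG1, 29.8 in iFoxL2 and 33.8 in iFoxP3, and 4.69 in iFoxC1. At 24 h they were 39.6, 48.1 and 23.9 CPM in iFoxA1, 45.7 and 44.9 in iFoxC1, 105 and 89.2 in iFoxG1, 105 and 52.8 in iFoxL2, and 95.9 and 96.8 in iFoxP3. The order by mean was iFoxG1, iFoxP3, iFoxL2, iFoxC1 and iFoxA1, with overlap between all neighbours except iFoxL2 and iFoxC1. One library at 24 h, iFoxA1 replicate 3, was below 5 of the 6 libraries at 0 h, and with it the groups overlapped. The average log2 change was 1.61 ± 0.19 (SE, edgeR adjusted p = 2.54e-04). Within lines Id1 passed in iFoxC1 alone (3.27 ± 0.51, SE), while iFoxG1, iFoxP3 and iFoxL2 had 1.56, 1.51 and 1.41 and iFoxA1 had 0.31. Without the 2 libraries that stood apart the Id1 log2 changes were 0.54 in iFoxA1, 1.57 in iFoxG1, 1.83 in iFoxL2, 1.54 in iFoxP3 and 3.24 in iFoxC1.

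**Figure D2:**
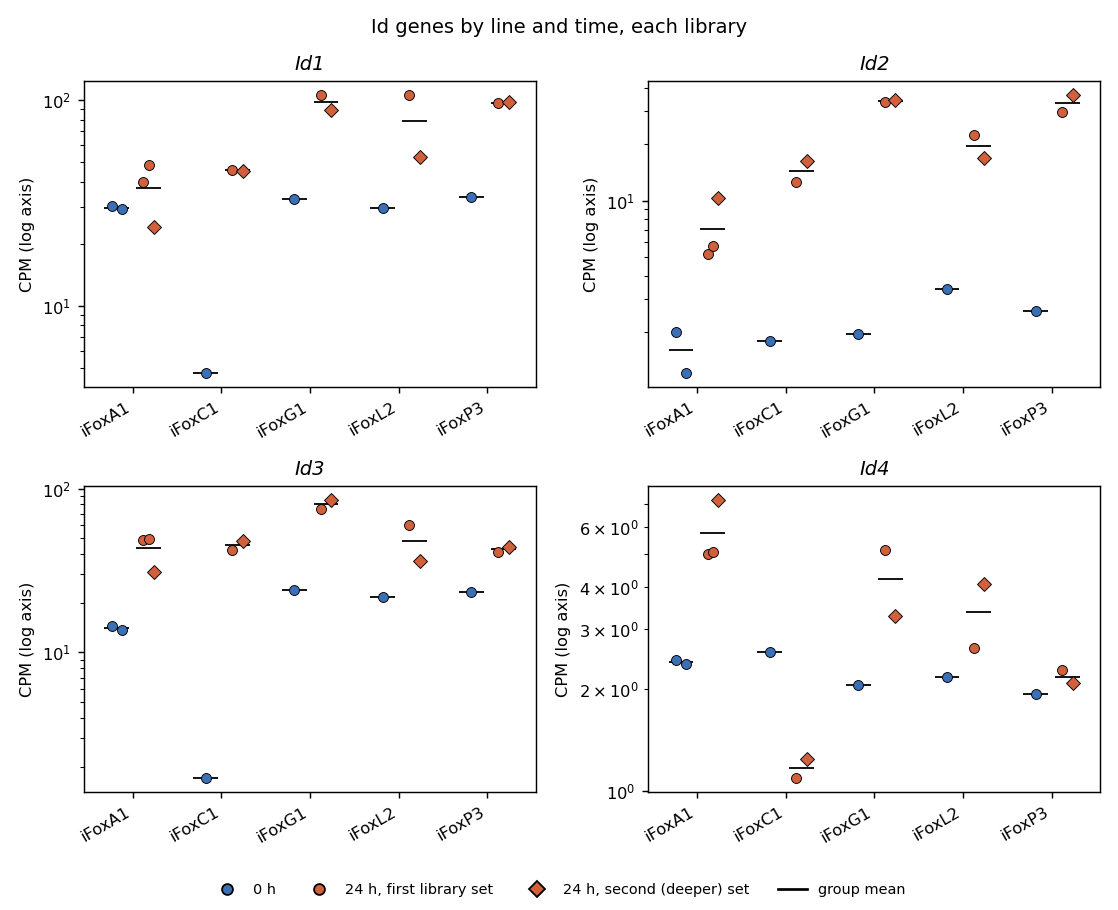
Levels of the Id genes in each library in CPM (log axis) by line, with 0 h in blue and 24 h in orange, circles for the first library set, diamonds for the second, and bars at group means. Id2 shows 2 separate bands by time, and the iFoxC1 library at 0 h lies below all others for Id1 (4.69 CPM) and Id3 (1.71 CPM).

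Id4, the member of the family best known from neural progenitors, is on chromosome 13 (48261228 to 48266026, mm10, plus strand) and did not follow the others. At 0 h it was between 1.94 and 2.56 CPM in all 6 libraries. At 24 h it had 5.01, 5.05 and 7.21 CPM in iFoxA1, 5.14 and 3.28 in iFoxG1, 2.64 and 4.08 in iFoxL2, and 2.27 and 2.08 in iFoxP3, but 1.09 and 1.24 in iFoxC1. All 3 iFoxA1 libraries were thus above all of 0 h and both iFoxC1 libraries below all of 0 h. The average log2 change of 0.39 ± 0.17 (SE) did not pass (edgeR adjusted p = 0.105). Within iFoxA1 Id4 rose by 1.26 ± 0.31 (SE, edgeR adjusted p = 0.03), a call that held in 11 of 17 runs with 1 library left out, and in iFoxC1 the change was -1.13 ± 0.39 (SE, edgeR adjusted p = 0.104).

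Msx1, a homeobox gene of limb, tooth and craniofacial mesenchyme on chromosome 5 (37820485 to 37824583, mm10, minus strand), had 1 to 3 counts in all at 0 h in each line. At 24 h its counts summed over a line's libraries were 73 in iFoxA1, 103 in iFoxC1, 102 in iFoxP3, 125 in iFoxL2 and 141 in iFoxG1. The ratio of levels with its 95% exact counting interval was 13.4 (4.46 to 66.0) in iFoxC1, 13.9 (4.58 to 69.1) in iFoxA1, 19.2 (5.19 to 160.9) in iFoxP3, 25.3 (6.87 to 210.7) in iFoxG1 and 44.8 (7.89 to 1783) in iFoxL2. Each interval is wide because of the few counts at 0 h, covers counting error only and overlaps all the others. Levels at 24 h were 0.496, 0.645 and 1.51 CPM in iFoxA1 and 1.59 to 3.46 CPM in the 8 libraries of the other lines, so iFoxA1 was lowest throughout. The fitted average log2 change was 4.27 ± 0.42 (SE, edgeR adjusted p = 8.02e-05), and Msx1 passed within each of the 5 lines. With 1 library left out, these calls held in 15 of 17 runs for iFoxA1 and, of 16 runs each, in 14 for iFoxL2, 8 for iFoxC1, 8 for iFoxG1 and 7 for iFoxP3.

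Msx2, a relative of Msx1 on chromosome 13 (53466884 to 53473074, mm10, minus strand), did not follow it. It was present at 0 h with 0.783 to 1.53 CPM, and at 24 h it had 3.65 and 4.98 CPM in iFoxC1 against 0.327 to 2.61 CPM in the 9 libraries of the other lines. The iFoxC1 libraries were thus above all the others at either time, while iFoxP3, with 0.327 and 0.702 CPM, was below its own 0 h library at 0.898 CPM. In no line did the change pass (edgeR adjusted p from 0.245 in iFoxC1 to 0.986 in iFoxL2), and the average was 0.39 ± 0.35 (SE, edgeR adjusted p = 0.407).

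Within lines, 17 of 50 pairs of member and line were called by edgeR, all of them higher at 24 h, against 7.28% of all pairs of gene and line (4.36% higher). At an unadjusted p below 0.05 the count was 23 higher and 3 lower, against 22.8% of all pairs, and DESeq2 called 21 higher and 1 lower, against 12.4%. By line, the calls were 5 of 10 in iFoxA1 (background 10.8%), 5 in iFoxC1 (9.73%), 3 in iFoxG1 (5.64%), 2 in iFoxP3 (6.05%) and 2 in iFoxL2 (4.23%). Id2 and Msx1 were called in every line, Id3 in iFoxA1, iFoxC1 and iFoxG1, Id1 and Bmp4 in iFoxC1, and Bmp7 and Id4 in iFoxA1. Without the 2 libraries that stood apart the count was 30, 25 higher and 5 lower, against 26.5% of all pairs.

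Bmp4, a ligand known for its action on ES cell self-renewal, is on chromosome 14 (46383520 to 46390669, mm10, minus strand) and did not move one way in all lines. At 0 h it had 27.0 and 25 CPM in iFoxA1, 32.3 in iFoxG1, 35.3 in iFoxL2 and 29.2 in iFoxP3, and 3.36 in iFoxC1. At 24 h it had 6.12, 6.34 and 20.1 CPM in iFoxA1, 29.8 and 36.0 in iFoxC1, 6.95 and 7.20 in iFoxG1, 9.66 and 28.2 in iFoxL2, and 16.1 and 18.5 in iFoxP3. In iFoxC1 the 24 h libraries were both above the 0 h one, and in the 4 other lines every 24 h library was below every 0 h library of its line. The libraries that stood apart, iFoxA1 replicate 3 and iFoxL2 replicate 2, were the ones nearest to 0 h. With all libraries Bmp4 rose in iFoxC1 by 3.29 ± 0.88 (SE, edgeR adjusted p = 0.0455), while the log2 changes were -1.25 ± 0.54 in iFoxA1, -2.19 ± 0.70 in iFoxG1, -0.90 ± 0.71 in iFoxL2 and -0.75 ± 0.71 in iFoxP3 (SE), with edgeR adjusted p from 0.107 to 0.591. The iFoxC1 call held in 8 of 16 runs with 1 library left out, and the difference among the 5 changes did not pass for Bmp4 (edgeR adjusted p = 0.179).

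Without the 2 libraries that stood apart, the Bmp4 changes were -2.07 in iFoxA1, -2.17 in iFoxG1, -1.86 in iFoxL2 and -0.73 in iFoxP3. As iFoxL2 then has 1 library at 0 h and 1 at 24 h, only the sizes of these changes are given. On average Bmp4 changed by -0.36 ± 0.31 (SE, edgeR adjusted p = 0.391) with all libraries and by -0.71 without the 2 that stood apart. The average was -1.28 without the iFoxC1 library at 0 h, which takes that line out of it. The main transcript, Bmp4-201 of 2064 bases, took 87.2% to 98.1% of the Bmp4 counts at 0 h but 52.3% to 69.4% in the second library set, where Bmp4-202 took 29.2% to 47.2%. In the first set at 24 h Bmp4-201 took 45.3% or more, so the split between these isoforms also varied within that set. Id1, by contrast, rested on 1 transcript, Id1-201, with 96.9% to 99.7% of its counts in all libraries.

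Bmp7, the second ligand of the set, with roles in kidney and eye, is on chromosome 2 (172868012 to 172940321, mm10, minus strand) and stood out in iFoxA1. At 0 h it had 3.98 and 3.92 CPM in iFoxA1, 5.40 in iFoxC1 and 2.41 to 2.65 in the 3 other lines. At 24 h it had 23.1, 26.7 and 11.0 CPM in iFoxA1 and 2.11 to 4.98 CPM in the 8 other libraries. Only the iFoxA1 libraries were thus above the range of 0 h, and the third of them, which stood apart, was less far above it. Within iFoxA1 Bmp7 rose by 2.36 ± 0.41 (SE, edgeR adjusted p = 0.00627), with 2.65 when the 2 libraries that stood apart were left out. In the 4 other lines the log2 changes ran from -0.90 to 0.67 and did not pass. The iFoxA1 change exceeded the mean of the others by 2.27 ± 0.47 (SE, edgeR adjusted p = 0.0367, a contrast called for 3.09% of genes), which passed in 6 of 17 runs with 1 library left out. This contrast was added after values had been seen.

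**Figure D3:**
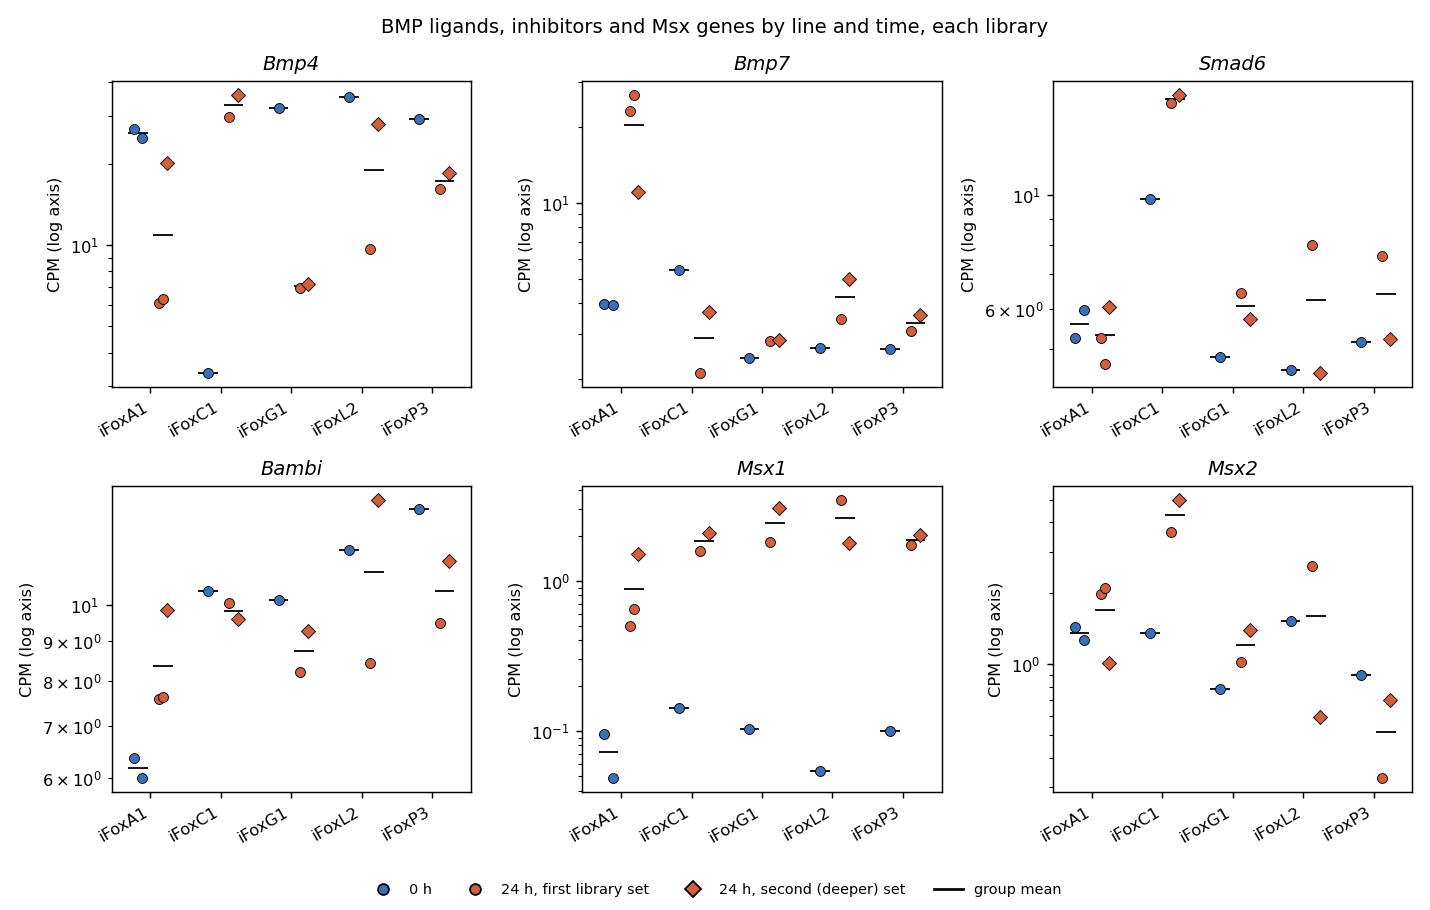
Levels of the ligands, inhibitors and Msx genes in each library in CPM (log axis) by line, with 0 h in blue and 24 h in orange, circles for the first library set, diamonds for the second, and bars at group means. Bmp4 lies below its 0 h level in 4 lines and above it in iFoxC1, where the 0 h library has 3.36 CPM, and Bmp7 reaches 11.0 to 26.7 CPM in iFoxA1 alone.

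Smad6, an inhibitory Smad induced by BMP, is on chromosome 9 (63953076 to 64022059, mm10, minus strand). Its highest level at 0 h was in iFoxC1, 9.81 CPM, against 4.54 to 5.95 CPM in the 5 other libraries. At 24 h it had 15.1 and 15.7 CPM in iFoxC1 and 4.48 to 7.98 CPM in the other lines, so iFoxC1 was highest at both times. The average log2 change of 0.33 ± 0.16 (SE) did not pass (edgeR adjusted p = 0.12). Bambi, a decoy receptor that lacks the kinase domain, changed least of all members, from 5.99 to 13.3 CPM at 0 h to 7.59 to 13.7 CPM at 24 h, with an average of -0.06 ± 0.13 (SE, edgeR adjusted p = 0.749). A log2 change within lines of 0.44 in iFoxA1 and of -0.35 in iFoxP3 marked its extremes, and neither passed.

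Of the 10 members, only Id3 passed edgeR's F test of a difference among the 5 changes from 0 h to 24 h (adjusted p = 0.0338), with 1% of all genes called. The Id3 call was not kept in every run with 1 library left out. For the other members a dependence on the line was neither shown nor excluded. At an unadjusted p below 0.05 the count was 6, against 14.1% of all genes, and DESeq2 called 5, against 8.24%. The iFoxC1 change in Id3 exceeded the mean of the others by 3.38 ± 0.43 (SE, edgeR adjusted p = 0.013, a contrast called for 1.08% of genes). This contrast was added after values had been seen. As iFoxC1 had 1 library at 0 h, its change cannot be formed when that library is left out. Without the 2 libraries that stood apart, 6 members were called, against 21% of all genes.

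The iFoxC1 library at 0 h was low for 3 members, and its contrast with the other lines was added after values had been seen. Compared with the 4 other lines at 0 h, Id3 was lower there by a log2 difference of -3.57 ± 0.40 (SE, edgeR adjusted p = 0.00455) and Id1 by -2.75 ± 0.47 (SE, edgeR adjusted p = 0.0245), the 2 of 10 members called (background 1.76%). The difference for Bmp4 was -3.18 ± 0.84 (SE, edgeR adjusted p = 0.099). Smad6 had 0.97 ± 0.30 (SE, edgeR adjusted p = 0.155), and Id2, with -0.35, and Id4, with 0.26, were near the other lines. By the F test over all 5 lines at 0 h Id3 alone was called (edgeR adjusted p = 0.0302, background 0.495%), with 4 members at an unadjusted p below 0.05 (12% of all genes) and 3 called by DESeq2 (6.29%). The same library had the highest summed ES marker level at 0 h (6344 TPM), in which Dppa5a had 3987 TPM against 2487 to 3389 TPM in the 5 others and Nanog 765 TPM against 313 to 371 TPM. Pou5f1 (787 TPM against 806 to 1055), Zfp42 (352 TPM against 528 to 629) and Utf1 (87.5 TPM against 156 to 230) were instead lowest in it, so the ES markers did not go one way. It also had the lowest summed levels of the mesoderm markers (0.431 TPM against 0.446 to 1.39), the primitive endoderm markers (1.44 TPM, as in iFoxG1, with 35.7 as the highest value, in iFoxA1) and the fibroblast markers (1.79 TPM against 2.53 to 6.67). Within these lists the genes did not go one way either. Thy1 made up most of the fibroblast sum (1.34 TPM against 1.54 to 6.17), while Col1a1 had 0.420 TPM against 0.184 to 0.630. Mixl1, of the mesoderm list, had 0.231 TPM against 0.114 to 0.329. The part of these markers in the low Id1, Id3 and Bmp4 was not tested. With 1 library a difference of the line and a difference of this library cannot be told apart.

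At 24 h each line was compared with the mean of the 4 others, which share libraries between the 5 comparisons. In iFoxA1, 4 of 10 members were called (background 15.1%). Bmp7 was higher by 2.63 ± 0.26 (SE, edgeR adjusted p = 0.000201) and Id4 by 1.23 ± 0.21 (SE, edgeR adjusted p = 0.00385), while Id2 was lower by -1.73 ± 0.26 (SE, edgeR adjusted p = 0.00223) and Id1 by -1.03 ± 0.25 (SE, edgeR adjusted p = 0.02). Id3 had -0.27 ± 0.18 (SE, edgeR adjusted p = 0.375) and did not pass. Without replicate 3 of iFoxA1 and replicate 2 of iFoxL2 the log2 differences were 2.98 for Bmp7, 1.11 for Id4, -2.18 for Id2 and -0.91 for Id1. The summed primitive endoderm markers of iFoxA1 were 59.0 and 60.5 TPM in the first set and 18.2 TPM in replicate 3. The other lines had 2.06 to 15.8 TPM, and iFoxA1 was already at 35.0 and 35.7 TPM at 0 h. The genes of this list did not go one way. Dab2 made up most of the sum in the first set, with 31.5 TPM in each library against 11.1 and 11.6 TPM at 0 h, and Gata6 was higher there too. Gata4, Sox17 and Foxa2 were instead lower in every iFoxA1 library at 24 h than at 0 h. In replicate 3 Dab2 and Gata6 were also below 0 h. The part of these markers in the differences of the members was not tested.

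In iFoxC1 at 24 h, 3 of 10 members were called (background 3.69%). Smad6 was higher by 1.36 ± 0.21 (SE, edgeR adjusted p = 0.00671) and Msx2 by 1.92 ± 0.44 (SE, edgeR adjusted p = 0.0475), and Id4 was lower by -1.64 ± 0.29 (SE, edgeR adjusted p = 0.0133). The Msx2 call held in 5 of 17 runs with 1 library left out, against 15 of 17 for Smad6. Bmp4, the highest of the 5 lines with no overlap, had 1.38 ± 0.43 (SE, edgeR adjusted p = 0.126). The summed mesoderm markers were 24.1 and 30.9 TPM in iFoxC1 against 2.75 to 8.63 TPM in the other lines, of which Hand1, itself on the list of BMP-responsive genes below, made up 22.9 and 29.9 TPM. The part of other cell types in these calls was not tested.

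No member was called at 24 h in iFoxG1 (background 2.74%), iFoxL2 (1.64%) or iFoxP3 (0.561%) by edgeR. At an unadjusted p below 0.05 the counts were 6, 0 and 3 (13%, 17.1% and 9.43% of all genes), and DESeq2 called 3, 0 and 1 (5.2%, 5.79% and 2.34%). Nearest to the threshold in iFoxG1 were Id3, 0.85 ± 0.20 (SE, edgeR adjusted p = 0.0548), and Id2, 1.08 ± 0.25 (SE, edgeR adjusted p = 0.058), both higher. Over all 5 lines the count of pairs called by edgeR was 7 of 50, against 4.75% of all pairs. The count without the 2 libraries that stood apart is given further below.

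The other genes of the pathway were taken from a list of 83 that leaves out the members, of which 65 were tested. On average over the lines 36 of the 65 were called (55.4%, against 37.8% of all genes), 33 higher and 3 lower, and the median log2 change was 0.55, against 0.04 over all genes. By line, 16 were called in iFoxA1 (24.6%, against 10.8% of all genes), 10 in iFoxC1 (15.4%, against 9.73%), 6 in iFoxG1 (9.23%, against 5.64%), 6 in iFoxP3 (9.23%, against 6.05%) and 4 in iFoxL2 (6.15%, against 4.23%), the last being near its background. The difference among the 5 changes passed for 2 of them, Chrd, an extracellular BMP antagonist, and Hey1, a transcriptional repressor (3.08%, against 1% of all genes).

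Among 5 ligands tested only Bmp8b rose (20%, against 37.8% of all genes). It had 0.697 ± 0.258 CPM at 0 h (SD, n = 6) and 3.36 ± 2.58 CPM at 24 h (SD, n = 11), a log2 change of 1.98 (edgeR adjusted p = 0.00222). Bmp6, Bmp8a and Gdf3 had 0.53, 0.15 and -0.12 and did not pass. Of 11 receptors and co-receptors 7 rose (63.6%), among them Tgfbr3, a co-receptor (1.65), Acvrl1, a type I receptor of endothelium (1.91), Acvr2b, a type II receptor (0.57), and Acvr1, a type I receptor (0.56). The main receptors of BMP4 did not pass, with -0.05 for Bmpr1a and 0.13 for Bmpr2. Of the 5 Smads on the list, Smad1 rose by 0.59 ± 0.11 (SE, edgeR adjusted p = 0.00286) and Smad4, the shared partner, by 0.29 ± 0.09 (SE, edgeR adjusted p = 0.0364), while Smad5 (0.23) and the inhibitory Smad7 (0.17) did not pass. The Smad4 call held in 8 of 17 runs with 1 library left out.

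Antagonists and other extracellular modulators had 8 of 12 called (66.7%), all higher. Fstl1, a follistatin-like secreted protein, rose by 0.91, Tsku, a secreted leucine-rich protein, by 1.12, and Bmp1, a protease that cleaves the antagonist chordin, by 1.30 on the log2 scale. Sost, a secreted inhibitor, had 0 to 2 reads at 0 h and 1.27 ± 0.648 CPM (SD, n = 11) at 24 h. Nog did not pass the filter on low counts. Intracellular regulators had 7 of 16 called, 6 higher and 1 lower, a share of 43.8% that was near the background of 37.8%, with Skil, a repressor of Smad complexes, at 70.1 ± 21.1 CPM at 0 h (SD, n = 6) and 225.0 ± 58.0 CPM at 24 h (SD, n = 11). This was a log2 change of 1.65 (edgeR adjusted p = 1.50e-05). Hivep1 and Hivep2, zinc finger proteins of the schnurri family, rose by 0.87 and 0.83, and Fkbp1a, which binds type I receptors, by 0.55.

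Of 13 other genes listed as responsive to BMP, 8 were called (61.5%), 7 higher and 1 lower. Hand1, a bHLH factor of mesoderm and trophoblast, had 0.150 ± 0.107 CPM at 0 h (SD, n = 6) and 11.3 ± 14.0 CPM at 24 h (SD, n = 11) and was highest in iFoxC1 at 38.3 ± 4.93 CPM (SD, n = 2). Dusp9, a phosphatase of ERK kinases reported downstream of BMP in ES cells, rose by 1.24 and Cdx2, a trophoblast and posterior factor, by 2.51, with 4.29 and 4.65 CPM as the means of iFoxA1 and iFoxC1 and below 0.4 CPM in the 3 other lines. Tbx3, a T-box factor of naive ES cells, fell by 2.13 on the log2 scale (edgeR adjusted p = 0.00788). All 3 E-protein genes, the HLH partners of the Id proteins, were called, with Tcf12 higher by 1.22, Tcf3 higher by 0.25 and Tcf4 changed by -0.69, and the Tcf3 call held in 6 of 17 runs with 1 library left out.

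**Figure D4:**
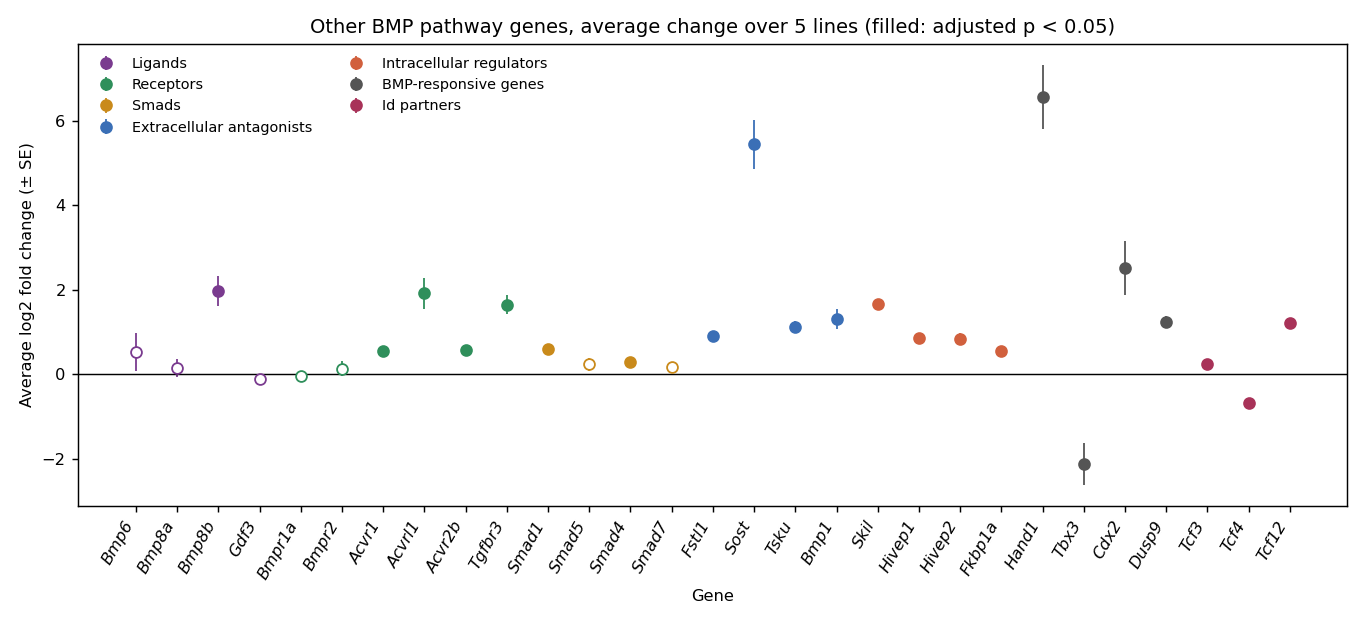
Average log2 change from 0 h to 24 h (vertical axis) for the pathway genes named in the text (horizontal axis), coloured by role, with error bars of 1 standard error from the edgeR fit and filled points where the adjusted p was below 0.05. Most lie above 0, with Hand1 and Sost highest, both from very few reads at 0 h, and Tbx3 and Tcf4 are the filled points below 0.

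Likeness to Id1 and to Bmp4 was described by Pearson's r of log2 CPM over the 17 libraries, among 9921 genes that code for protein and averaged 5 CPM or more. The libraries share their line, medium and library set, so r has no p-value here. Closest to Id1 were Epha1, an ephrin receptor (0.97), Wt1, a zinc finger factor of kidney and gonad (0.94), Gpc1, a glypican (0.94), Thap2 (0.94) and Fam120b (0.93), while Id3 ranked 23 (0.90), Id2 ranked 269 (0.77) and Bmp4 had 0.09. Closest to Bmp4 were Ubtf, a factor of RNA polymerase I (0.89), Slc37a3 (0.88), Dppa2, a factor of pluripotent cells (0.87), Lck, a kinase (0.85), and Fbl, a nucleolar methyltransferase (0.83). Id1, Id3 and Bmp4 were all lowest in the same library, that of iFoxC1 at 0 h. Epha1, Wt1, Gpc1, Thap2 and Fam120b were lowest there too, as was Ubtf, but not the other genes listed as closest to Bmp4. How much of each r rests on this library was not tested.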

How the data were processed

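The submitters' processing notes name Salmon 1.4.0, DESeq2 1.30.1 and the mm10 build. For the transcript annotation, not given in the sources used here, GENCODE M21 was used. The authors deposited Salmon's estimated counts per transcript, not normalised, and TPM, scaled to transcript length and library total. Of 137271 transcripts, 137225 were matched by identifier to GENCODE M21, and the 46 others (at most 0.0133% of a library's counts) were left out. Libraries were strand-specific per the labels' protocols.

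Estimated counts were summed per gene symbol, rounded, filtered with filterByExpr by group, normalised by TMM and, in edgeR 4.0.16 (R 4.3.3), fitted as 10 groups of line by time, with 7 residual degrees of freedom. Each line but iFoxA1 had 1 library at 0 h, which was assumed to vary like the other groups. P-values were adjusted over all 19796 genes per contrast (Benjamini-Hochberg), and the threshold was 0.05. The fit was tested on simulated data. The members, gene lists and the split of libraries at 25 M counts were chosen with earlier results of these data known, and the contrasts of 1 line's change, or of 1 line's 0 h level, with the other lines were added after values had been seen. All 10 members were named, and from each pathway sub-list up to 4 genes with the smallest adjusted p in the average change, with Bmpr1a, Bmpr2, Smad1, Smad5, Smad4, Smad7, Nog and Tcf3 in addition. Alternatives were DESeq2 1.42.0, RLE size factors, no filter, a replicate block, the library set as a term, the first set alone, no libraries that stand apart, limma 3.58.1 on log2(TPM + 0.5), and each library left out.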

Additional observations from a re-analysis of the deposited data

Results flagged for a closer look

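The change in Id3 differed among the 5 lines (edgeR F test, adjusted p = 0.0338), a call not kept in every run with 1 library left out. The Id3 change in iFoxC1 exceeded the mean of the 4 others by 3.38 on the log2 scale, with 1.71 CPM in the only iFoxC1 library at 0 h against 13.6 to 23.9 CPM in the 5 others. The Bmp7 change in iFoxA1 exceeded that of the 4 others by 2.27 on the log2 scale, with 11.0 to 26.7 CPM at 24 h against 2.11 to 4.98 CPM in the other lines. All 3 results were marked because a test of the difference between lines passed. The contrasts of iFoxC1 and of iFoxA1 with the other lines were added after values had been seen. With 1 library left out, the Id3 contrast passed in 14 of 16 runs and the Bmp7 contrast in 6 of 17. No group had more than 3 libraries, so single libraries were not tested as outliers.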

How the results depend on the processing

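On average over the lines, 4 members were called with all libraries (37.8% of genes), 9 in the first library set alone (63.2%) and 8 without the 2 libraries that stand apart (52.9%), and 4 to 7 with 1 library left out. Of 50 pairs of member and line, 17 were called within lines (7.28% of all pairs), against 38 in the first set alone (44.3%), 30 without the 2 libraries (26.5%), 5 by limma (2.84%) and 7 to 22 with 1 library left out. The shares of all genes or pairs called moved too, also among the runs with 1 library left out. None of the counts in this paragraph thus describes the members alone. The difference among changes was called for 1 member (1% of genes), against 5 by DESeq2 (8.24%), 3 with the library set as a term (4.84%), 9 in the first set alone (50.9%), 6 without the 2 libraries (21%), 0 by limma (0.202%) and 0 to 3 with 1 library left out. At 24 h, 7 pairs were called (4.75%), against 12 by DESeq2 (7.68%), 11 with the set as a term (9.2%), 32 in the first set alone (29.5%), 26 without the 2 libraries (17.1%), 3 by limma (1.75%) and 4 to 13 with 1 library left out. At 0 h, 1 member was called (0.495%), against 3 by DESeq2 (6.29%), 2 with the set as a term (3.55%), 6 in the first set alone (54.5%), 4 without the 2 libraries (19.4%), 0 by limma (0.136%) and 0 to 2 with 1 library left out. The pathway list had 36 calls with all libraries (37.8% of all genes), against 21 by limma (22.8%). The first set alone has replicates in iFoxA1 only, with 2 residual degrees of freedom, and it calls 12237 genes on average, against 7490 with all libraries and 4516 by limma.

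The labels do not say what a replicate number marks, and the numbers were not taken to pair the libraries, since not every pair correlated above 0.1. Over 30 pairs of groups with the same number, the correlation of deviations from the group means ran from -0.566 to 0.757, with 16 above 0.1. Where both groups have 2 libraries, the deviations within a group mirror each other. Their pairs of replicate 1 and of replicate 2 thus hold the same value and do not count as separate. The 12 pairs at 24 h among the lines other than iFoxA1, where the number coincides with the library set, had 0.551 to 0.757, and iFoxA1 replicate 2, which is in the first set, had -0.566 to -0.509 with the replicate 2 of the others. The pairs with the iFoxA1 libraries at 0 h had 0.00265 to 0.0414. Both of these libraries are in the first set, so their pairs cannot show a difference between sets. With the number as a block, 3 members differed among changes (3.12% of genes) and 15 pairs at 24 h (9.18%), against 1 (1%) and 7 (4.75%) without it. The main fit has no term for the library set. With that term 14.6% of all pairs of gene and line were called within lines, against 7.28% without it.

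Directions turned in few cases, none of which passed the test with all libraries. With the set as a term Smad6 within iFoxA1 had 0.0091 and Bmpr1a on average 0.00032. In the first set alone Bmpr1a had 0.0034, and by limma it had 0.053, Bmpr2 -0.16 and Msx2 within iFoxL2 -0.085. With 1 library left out the average ran from -1.28 to 0.086 for Bmp4, -0.15 to 0.0064 for Bambi, -0.10 to 0.034 for Bmpr1a, -0.024 to 0.29 for Bmpr2 and -0.34 to 0.50 for Bmp8a. Within iFoxA1 Smad6 ran from -0.18 to 0.016, and within iFoxL2 Smad6 from -0.020 to 0.82, Bambi from -0.47 to 0.21 and Msx2 from -1.34 to 0.78. The cause was not tested.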
